A study of Mus musculus with 30 samples.

Results

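The third hindlimb digit of the mouse regrows after its tip is removed, and the data described here compare that digit 6 h after amputation with digits taken at 0 h. The comparison rests on 6 samples of the 30 in the series, with 3 libraries at 6 h and 3 at 0 h, chosen by the time point in their labels alone and read across all genes. All digits came from adult male wild-type C57Bl/6 mice with no transgene. The mice were anesthetized for the amputation, no other drug is named, and at most 33% of the distal phalanx (P3) was removed. Digits at 0 h had been amputated as well, so the 0 h group is a wounded digit without recovery time and not an intact digit. Poly(A) RNA was taken from the collected digit tissue as a whole, which holds epidermis, nail tissue, dermis, bone, vessels and nerve, and a lower level of a gene in such bulk RNA cannot be told apart from fewer cells that carry it.

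Amputation of a digit tip sets off clotting and inflammation within minutes to hours, and only later the histolysis of bone, closure of the epidermis and formation of a blastema. Injured cells first switch on immediate early genes, which encode transcription factors such as Fos and Jun and feedback phosphatases, and whose mRNAs decay quickly. Secreted signals follow, among them chemokines that attract neutrophils, interleukin-1, and cytokines of the interleukin-6 family that act through the shared receptor gp130 and the transcription factor Stat3. Proteases that open the matrix, and their inhibitors, belong to the same early response.

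The 6 h libraries held 6446428, 10661660 and 4786980 expected counts for replicates 1, 2 and 3, and those at 0 h held 12773273, 9955035 and 6094615. The library dates fall into a summer and a winter set, and both groups hold both. Replicate 3 at 0 h and replicates 1 and 3 at 6 h carry July dates, while replicates 1 and 2 at 0 h and replicate 2 at 6 h carry November dates. Krt14, a keratin of basal epidermis, was at 5599 ± 447 CPM (counts scaled to library size, mean ± SD, n = 3, as for all such values here) at 0 h and 5948 ± 648 CPM at 6 h. Col1a1, a matrix collagen gene not particular to bone, was at 1840 ± 914 and 816 ± 209 CPM, highest in 0 h replicate 2. These levels show epidermal and matrix RNA in both groups and cannot tell a digit from other skin. Replicate 2 at 0 h stood apart in muscle markers. Its summed CPM over 14 skeletal muscle markers was 114, against 7.47 and 10.1 in the other 0 h libraries and 4.14 to 14.2 at 6 h. Over red cell genes it had 493 CPM, against 75.1 and 217 in the other 0 h libraries. At 6 h the red cell sums were 105, 354 and 130 CPM for replicates 1, 2 and 3, so 6 h replicate 2 was high as well.

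Of 13793 genes tested, 26 differed between 6 h and 0 h at an adjusted p under 0.05 (edgeR quasi-likelihood test, Benjamini-Hochberg), which is 0.189% of the genes tested. At 6 h, 19 genes were higher (0.138%) and 7 were lower (0.0508%). Among the genes that rose were the cytokines Il6 and Lif, the matrix enzymes Mmp3 and Adamts4 with the inhibitor Timp1, the adhesion molecule Selp, and the p53 targets Ccng1 and Trp53inp1. The genes that fell were led by the AP-1 genes Fosb, Fos and Jun. Log2 fold changes of the genes that rose ran from 0.91 to 7.96 with a median of 1.80, and those of the genes that fell had a median of -1.78. In all 26 genes the 3 libraries of one group lay outside the range of the other, whereas over all genes tested 8.61% had every 6 h library above every 0 h library and 9.23% had every one below. An exact two-sided permutation test of 3 against 3 libraries gave p = 0.1 for each of the 26, the smallest it can give, so the calls rest on the edgeR fit, which shares its estimate of spread over all 30 libraries.

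**Figure D1:**
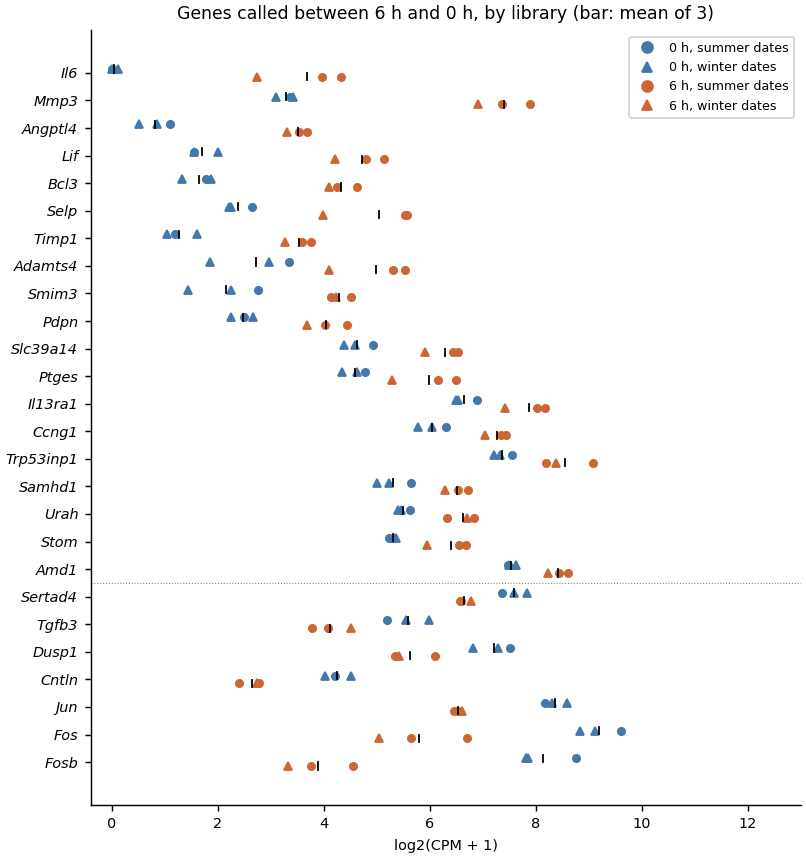
Levels of the 26 called genes as log2(CPM + 1) on the horizontal axis, with 1 point per library (blue 0 h, orange 6 h, circles summer (July) dates, triangles winter (November) dates) and a bar at the mean of 3. Above the dotted line every orange point lies to the right of every blue point of that gene, and below the line to the left, with Il6 at the top and Fosb at the bottom.

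**Figure D2:**
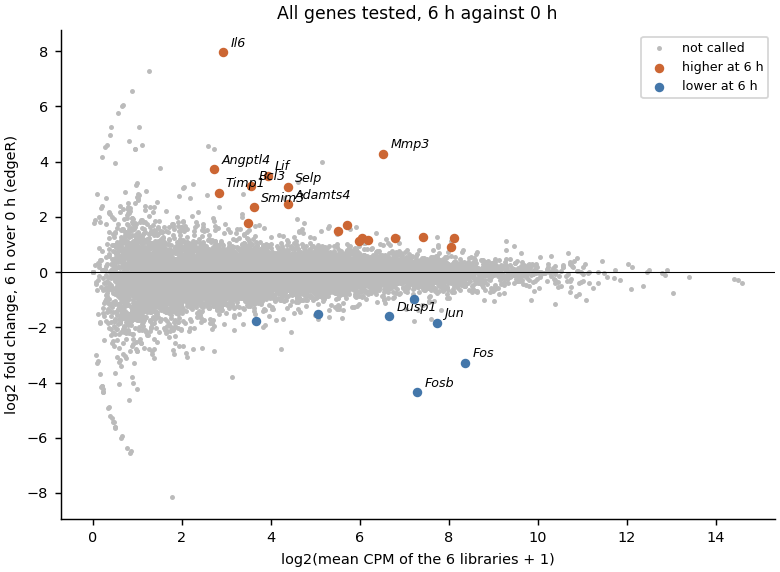
The edgeR log2 fold change of 6 h over 0 h for all 13793 genes tested against log2 of the mean CPM plus 1, with the 19 higher genes in orange and the 7 lower genes in blue. Il6 at 7.96 and Fosb at -4.36 are the outermost called points, while many uncalled genes with few counts reach similar fold changes.

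Fosb, which encodes an AP-1 partner of the Jun proteins, was at 231, 223 and 435 CPM in 0 h replicates 1, 2 and 3 and at 12.5, 9.02 and 22.5 CPM at 6 h. The groups are far apart, and the lowest 0 h library was still well above the highest 6 h library. Its log2 fold change was -4.36 ± 0.56 (SE, adjusted p = 0.000264). Fos, the founding AP-1 member, was at 556, 455 and 780 CPM at 0 h and at 49.0, 32.0 and 103 CPM at 6 h. It fell by 3.29 ± 0.50 on the log2 scale (adjusted p = 0.00241), and the groups did not overlap. Jun was at 316, 385 and 288 CPM at 0 h and 92.0, 97.1 and 86.9 CPM at 6 h, with little spread within either group and a log2 fold change of -1.84 ± 0.29 (adjusted p = 0.0027). These 3 genes kept an adjusted p under 0.05 when any single library of either group was left out, which no other called gene did. They lie at chr7:19302696-19310051 (Fosb, minus strand), chr12:85473890-85477273 (Fos, plus strand) and chr4:95049034-95052222 (Jun, minus strand) of GRCm38. On the per-length TPM scale, which allows levels of different genes to be compared, Fos was the most abundant of the 3 at 0 h, at 612 ± 200 TPM, against 220 ± 26.9 for Jun and 171 ± 78.0 for Fosb.

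Dusp1, a phosphatase that switches off MAP kinases, also fell, from 156, 111 and 182 CPM at 0 h to 39.6, 41.5 and 67.5 CPM at 6 h (log2 fold change -1.6 ± 0.34, adjusted p = 0.0353). Of the 24 immediate early genes listed, all were tested, 4 fell and none rose, and 12 were lower and 0 higher at an unadjusted p under 0.05, against 3.55% and 3.69% of all genes. The median log2 fold change of the list was -0.74, against -0.01 over all genes tested. Egr1, a zinc finger factor, was at 294 ± 18.2 CPM at 0 h and 89.9 ± 45.1 CPM at 6 h (adjusted p = 0.0999), and Cyr61, a secreted matrix protein, was at 71.8 ± 8.11 and 22.6 ± 2.47 CPM (adjusted p = 0.0792). Both stayed above the threshold although their groups were apart. The list did not move as 1 block, since Myc was at 54.7 ± 10.6 and 67.2 ± 11.2 CPM and the AP-1 gene Fosl2 at 273 ± 35.9 and 291 ± 37.0 CPM. Fosl1, another AP-1 gene, had a log2 fold change of 1.47 ± 0.84 (adjusted p = 0.784), with 0 h libraries from 0.746 to 12.8 CPM.

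The other 3 genes that fell belong to different classes. Tgfb3, a TGF-beta ligand, was at 46.0, 62.6 and 35.5 CPM at 0 h and at 15.9, 21.8 and 12.7 CPM at 6 h (log2 fold change -1.51 ± 0.30, adjusted p = 0.0203). Its relatives Tgfb1, at 13.2 ± 2.49 and 9.86 ± 2.43 CPM, and Tgfb2, at 42.5 ± 5.61 and 25.7 ± 4.80 CPM, did not pass (adjusted p = 0.902 and 0.478). Cntln, a centrosomal linker gene, went from 18.2 ± 3.38 to 5.27 ± 0.874 CPM (-1.78 ± 0.35, adjusted p = 0.0203). Sertad4 went from 192, 226 and 164 CPM to 93.8, 108 and 95.7 CPM (-0.97 ± 0.18, adjusted p = 0.0146), the smallest change among the genes that fell. Exons of Jun, Tgfb3 and Sertad4 each overlap an opposite-strand transcript over at most 7.6% of their length, and no source used here says whether reads were counted by strand.

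Il6, the cytokine that gives the gp130 family its name, had 1, 0 and 0 expected counts in the 0 h libraries and 129, 56 and 75 at 6 h. It was thus at the floor of detection in every 0 h library and plainly present in every 6 h library, at 19.0, 5.67 and 14.7 CPM. Set against a floor of 3 counts in each 0 h library, Il6 was at least 37.8-fold higher at 6 h (adjusted p = 0.00638). The fitted log2 fold change of 7.96 depends on the prior count and is not a bound. Lif, a second gp130 ligand, was at 1.92, 2.99 and 1.91 CPM at 0 h and at 26.7, 17.5 and 34.1 CPM at 6 h. All 3 of its 6 h libraries stood several times above all 0 h libraries, with a log2 fold change of 3.50 ± 0.55 (adjusted p = 0.0027), and leaving out a library took the adjusted p over 0.05 only for 0 h replicate 1. Per unit length Il6 was at 27.6 ± 15.8 TPM and Lif at 14.8 ± 5.54 TPM at 6 h. Read library by library, Il6 was at 41.1, 10.3 and 31.5 TPM in replicates 1, 2 and 3. Lif was lower in each of these libraries, at 16.2, 8.64 and 19.4 TPM, and the 2 genes were closest in replicate 2. The difference between the genes was not tested.

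Among the other 12 listed genes of the interleukin-6 family, edgeR called none and DESeq2 called Osmr and Stat3 higher. Osmr, the oncostatin M receptor, was at 17.7, 19.0 and 19.2 CPM at 0 h and 74.9, 26.8 and 69.7 CPM at 6 h (log2 fold change 1.61 ± 0.41, adjusted p = 0.114), with 6 h replicate 2 close to the 0 h level. Stat3 was at 116 ± 8.33 and 202 ± 67.2 CPM (0.80 ± 0.20, adjusted p = 0.113), and Socs3, its feedback inhibitor, at 37.3 ± 13.5 and 47.2 ± 21.2 CPM (adjusted p = 0.977). The shared receptor Il6st was at 176 ± 21.0 and 216 ± 62.4 CPM (adjusted p = 0.889). Il11, another ligand, had 199, 174 and 13 counts at 0 h and 9, 166 and 17 at 6 h, so that its November libraries were high and its July libraries low in both groups.

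Mmp3, a stromelysin that cleaves proteoglycans and activates other metalloproteinases, was at 9.67, 7.57 and 9.28 CPM at 0 h and at 237, 120 and 164 CPM at 6 h. Every 6 h library stood far above every 0 h library, and the log2 fold change was 4.29 ± 0.77 (adjusted p = 0.0106). Of the 31-base words in Mmp3 transcripts, 14.6% also occur in Mmp10 or in 2 predicted genes, and Mmp10 itself held 4, 10 and 0 counts at 0 h and 7, 17 and 4 at 6 h. Timp1, an inhibitor of these enzymes, was at 1.04, 2.03 and 1.28 CPM at 0 h and 12.5, 8.61 and 11.0 CPM at 6 h, again without overlap (2.87 ± 0.54, adjusted p = 0.0146). Adamts4, an aggrecanase, went from 6.16 ± 3.30 to 33.3 ± 15.3 CPM (2.46 ± 0.53, adjusted p = 0.0418). Of 18 listed metalloproteinases, Adamts genes and Timps, 15 were tested, and these 3 rose while none fell. The list had a median log2 fold change of 1.03. At an unadjusted p under 0.05, 7 members were higher and 0 lower, against 3.69% and 3.55% of all genes. Mmp13, a collagenase, was at 3.04, 1.6 and 9.28 CPM and then 56.0, 26.1 and 44.4 CPM (3.26 ± 0.74, adjusted p = 0.0679), while Mmp2, Mmp14, Timp2 and Timp3 had log2 fold changes of -0.39, -0.17, -0.39 and -0.39 and did not pass.

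Bcl3, an atypical I-kappa-B protein of the nucleus, was at 2.64, 1.49 and 2.40 CPM at 0 h and 18.0, 16.1 and 23.7 CPM at 6 h. The groups did not overlap, with a log2 fold change of 3.13 ± 0.60 (adjusted p = 0.0146). It was the only one of 16 listed NF-kB feedback genes that was called, and the list had a median of 0.48. At an unadjusted p under 0.05, 4 members were higher and 0 lower, against 3.69% and 3.55% of all genes. Nfkbiz was at 54.3 ± 17.7 and 98.0 ± 5.84 CPM (0.86 ± 0.28, adjusted p = 0.352), and Icam1, an adhesion molecule, at 10.8, 9.17 and 8.80 CPM and then 31.2, 15.1 and 27.2 CPM (1.34 ± 0.34, adjusted p = 0.114).

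The 4 called genes that rose most and have an entry among the RefSeq promoter windows (GRCm38.p6) were Il6, Mmp3, Lif and Bcl3. Their windows, shown so that the start regions of the main risers can be read beside their values, run from 250 bases before to 50 bases after the annotated start and are printed 5′ to 3′ on the strand of the gene. Capitals mark matches on either strand to TGANTCA (AP-1), TGACGTCA (CRE), TTCNNNGAA (STAT), GGGA and CC with any 4 bases between them (kappa B) or TATAAA, where overlapping matches run together. They are Il6 at chr5:30012864-30013163 (plus strand), Mmp3 at chr9:7445572-7445871 (plus strand), Lif at chr11:4257318-4257617 (plus strand) and Bcl3 at chr7:19822706-19823005 (minus strand).
Il6: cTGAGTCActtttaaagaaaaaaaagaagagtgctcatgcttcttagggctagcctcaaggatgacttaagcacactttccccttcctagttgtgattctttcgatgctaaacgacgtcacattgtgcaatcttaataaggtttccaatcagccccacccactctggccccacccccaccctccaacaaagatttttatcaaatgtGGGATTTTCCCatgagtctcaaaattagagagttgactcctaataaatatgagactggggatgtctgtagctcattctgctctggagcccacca
Mmp3: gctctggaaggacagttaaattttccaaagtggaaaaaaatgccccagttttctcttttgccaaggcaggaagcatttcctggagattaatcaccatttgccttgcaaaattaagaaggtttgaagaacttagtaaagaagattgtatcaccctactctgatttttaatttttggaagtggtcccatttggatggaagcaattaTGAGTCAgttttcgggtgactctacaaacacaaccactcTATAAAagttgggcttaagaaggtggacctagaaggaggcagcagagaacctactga
Lif: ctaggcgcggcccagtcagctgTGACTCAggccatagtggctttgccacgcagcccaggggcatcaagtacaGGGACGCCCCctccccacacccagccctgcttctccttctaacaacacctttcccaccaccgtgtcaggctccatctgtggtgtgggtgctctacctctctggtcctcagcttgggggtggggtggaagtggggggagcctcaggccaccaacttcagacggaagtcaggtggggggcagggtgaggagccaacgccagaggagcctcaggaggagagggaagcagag
Bcl3: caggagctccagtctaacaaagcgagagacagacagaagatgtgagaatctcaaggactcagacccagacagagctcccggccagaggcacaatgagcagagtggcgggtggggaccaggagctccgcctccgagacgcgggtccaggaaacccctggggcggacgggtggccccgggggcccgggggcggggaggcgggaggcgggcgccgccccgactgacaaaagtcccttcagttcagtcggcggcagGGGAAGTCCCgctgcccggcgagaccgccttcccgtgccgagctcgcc

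The Il6 window held an AP-1 match that begins at the second base of the window and a kappa B match at -44, read on both strands with an offset of 1 base. In Mmp3 an AP-1 match began at -46 and a TATAAA at -7, in Lif an AP-1 match at -228 and a kappa B match at -178, and in Bcl3 a kappa B match at base 3 after the start. Of all 32851 windows, 7.81% held the AP-1 letters, 20.7% the kappa B letters, 8.30% the STAT letters, 13.6% TATAAA and 1.79% the CRE letters. Of the 19 genes that rose, 14 had a window, and 4 of these held the AP-1 letters, 5 the kappa B letters and 2 the STAT letters. Of the 7 genes that fell, 6 had a window, with 0 holding the AP-1 letters, 3 the kappa B letters and 1 the CRE letters. A gene was counted where any of its windows held the letters, while the shares above are of single windows, so the 2 measures are not alike. All are matches of letters in a short window and were not tested as sites.

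Selp encodes P-selectin, which lets leukocytes roll on activated endothelium. It was at 3.76, 3.62 and 5.28 CPM at 0 h and at 46.7, 14.9 and 45.0 CPM at 6 h, and 6 h replicate 2 was the lowest of its group by a wide margin (log2 fold change 3.08 ± 0.64, adjusted p = 0.0313). It was the only called gene of 13 endothelial markers, a list whose median log2 fold change was 0.00, or 0.12 without 0 h replicate 2. Sele, E-selectin, was at 12.6 ± 6.45 and 34.9 ± 11.5 CPM (1.49 ± 0.46, adjusted p = 0.284), and Cldn5, a tight junction gene of endothelium, was at 11.2 ± 3.16 and 7.28 ± 1.74 CPM (adjusted p = 0.717).

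Ptges makes prostaglandin E2 from the product of Ptgs2. Ptges rose from 23.7, 19.3 and 26.6 CPM to 70.0, 38.2 and 88.9 CPM (1.5 ± 0.32, adjusted p = 0.037). Ptgs2 itself was at 9.12, 4.58 and 70.4 CPM at 0 h and 90.1, 49.0 and 102 CPM at 6 h, where 0 h replicate 3 lay within the 6 h range (adjusted p = 0.763). Il13ra1, a receptor chain for interleukin-13, went from 99.6 ± 16.1 to 238 ± 60.8 CPM (1.26 ± 0.24, adjusted p = 0.0146). Angptl4, a secreted inhibitor of lipoprotein lipase that glucocorticoids, hypoxia and PPARs are known to induce, had 10, 4 and 7 counts at 0 h and 72, 87 and 60 at 6 h, or 0.782 ± 0.347 and 10.4 ± 1.48 CPM (3.73 ± 0.79, adjusted p = 0.0356). The listed hypoxia and glycolysis genes, 16 tested, had no call by edgeR or DESeq2 and a median of 0.04, or -0.00096 without 0 h replicate 2. Of 15 glucocorticoid-induced genes Angptl4 rose and Dusp1 fell, and 7 members were higher and 1 lower at an unadjusted p under 0.05. The shares over all genes were 3.69% and 3.55%. The median of the list was 0.36. Without 0 h replicate 2 that median was 0.18, and on the log2(CPM + 1) scale it was 0.09 within July dates and 0.40 within November dates. Among these, Fkbp5 was at 27.4, 24.8 and 20.3 CPM at 0 h and at 86.9, 28.4 and 73.8 CPM at 6 h (adjusted p = 0.292), and Zbtb16, likewise, was high in both July libraries at 6 h and not in the November library.

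Among listed p53 targets, Ccng1 and Trp53inp1 rose. Ccng1, a cyclin G target of p53, was at 53.5, 64.8 and 77.6 CPM at 0 h and 161, 132 and 172 CPM at 6 h (1.25 ± 0.24, adjusted p = 0.0149). Trp53inp1, which promotes p53 activity, was at 147, 160 and 187 CPM and then at 293, 331 and 541 CPM (1.24 ± 0.25, adjusted p = 0.0203). In both genes every 6 h library lay above every 0 h library. Of 12 listed p53 targets 11 were tested, 2 rose and none fell, and the median was 0.59. At an unadjusted p under 0.05, 6 were higher and 0 lower, against 3.69% and 3.55% of all genes. Eda2r was at 5.79 ± 2.61 and 18.7 ± 4.43 CPM and Phlda3 at 17.2 ± 3.94 and 33.5 ± 4.89 CPM, without a call (adjusted p = 0.476 and 0.339). The best known targets did not lead the list, since Cdkn1a was at 174 ± 18.4 and 208 ± 29.4 CPM, Btg2 at 227 ± 32.6 and 155 ± 25.2 CPM and Gdf15 at 0 to 2 counts in every library.

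The remaining genes that rose share no list. Slc39a14, a zinc and iron importer, went from 24.0 ± 4.86 to 78.7 ± 17.3 CPM (1.72 ± 0.29, adjusted p = 0.00638). Samhd1, a dNTP hydrolase, went from 38.9 ± 9.08 to 90.9 ± 13.2 CPM (1.23 ± 0.22, adjusted p = 0.00828). Pdpn, podoplanin, a membrane mucin of lymphatic endothelium, fibroblasts and wound keratinocytes, was at 3.76, 5.33 and 4.64 CPM and then 20.6, 11.9 and 15.3 CPM (1.80 ± 0.35, adjusted p = 0.0165). Smim3 had a log2 fold change of 2.34 ± 0.46 (adjusted p = 0.0165), Urah, an enzyme of urate breakdown, 1.17 ± 0.25 (adjusted p = 0.0353) and Stom, the membrane protein stomatin, 1.14 ± 0.24 (adjusted p = 0.037). Amd1, which makes decarboxylated S-adenosylmethionine for polyamine synthesis, had the smallest rise, from 184 ± 10.7 to 345 ± 43.9 CPM (0.91 ± 0.17, adjusted p = 0.0146), and 82.8% of the 31-base words of its transcripts occur in transcripts of other genes, mostly its pseudogenes, so its counts are uncertain. Opposite-strand transcripts overlap 12.4% of the exon length of Urah, 9.93% of that of Selp, 6.51% of that of Bcl3 and 3.56% of that of Adamts4.

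Of the listed chemokines, which attract neutrophils and monocytes, edgeR called none and DESeq2 called Cxcl1, Cxcl2 and Ccl7 higher. Cxcl1, a ligand of the neutrophil receptor Cxcr2, was at 2.0, 1.49 and 9.76 CPM at 0 h and at 58.6, 87.2 and 47.8 CPM at 6 h (3.97 ± 0.92, adjusted p = 0.0752). The groups were well apart, but 0 h replicate 3 lay several times above the other 0 h libraries. Cxcl2 had 0, 4 and 6 counts at 0 h and 45, 109 and 54.8 at 6 h, Ccl2 had 4, 2 and 1 and then 24, 44 and 12, and Ccl7 had 20, 14 and 3 and then 43, 115 and 41. Of 15 chemokines 12 were tested, and all 12 had a positive log2 fold change. That shared sign holds only for members that passed the count filter. Of those left out, Ppbp had 6, 17 and 5 counts at 0 h and 2, 9 and 0 at 6 h. Ccl12 had 6, 6 and 0 and then 1, 3 and 2, and Cxcl10 had 0, 0 and 0 and then 0, 1 and 1. In 9 of the 12 tested, every 6 h library lay above every 0 h library, against 8.61% of all genes tested. Some of these rest on few counts, with Ccl8 at 1, 0 and 0 counts at 0 h and 2, 1 and 2 at 6 h. Ccl4 had 1, 0 and 0 counts and then 3, 2 and 9. Outside the 9, Ccl3 had a single count in 1 library at 6 h and none at 0 h. The median was 3.27, or 1.33 with members that were at or under 3 counts in every 0 h library set at their bound. At an unadjusted p under 0.05, 6 were higher and 0 lower, against 3.69% and 3.55% of all genes. Cxcl12, a chemokine made by resting stroma, was at 78.2 ± 11.7 and 91.9 ± 35.9 CPM.

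Il1b was at 3, 1 and 8 counts at 0 h and 114, 55 and 47 at 6 h (4.46 ± 1.04, adjusted p = 0.0753). Of the 13 tested members of the interleukin-1 family edgeR called none and DESeq2 called Il1b. At an unadjusted p under 0.05, 4 were higher and 0 lower, against 3.69% and 3.55% of all genes. Tnf had at most 1 count in any of the 6 libraries, and Csf2 had none. Il24, a cytokine of the interleukin-10 family, had 0, 1 and 0 counts at 0 h and 16, 14 and 12 at 6 h, at least 5.89-fold higher against the floor (adjusted p = 0.479), and Il19 had 2, 0 and 0 and then 25, 7 and 5.

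Markers of neutrophils were present at 6 h in part. Clec4e had 0 counts in all 0 h libraries and 11, 7 and 6 at 6 h, at least 3.37-fold higher against the floor (adjusted p = 0.339). S100a8 had 0, 2 and 0 counts and then 25, 7 and 11, and Clec4d had 10, 7 and 2 and then 29.6, 46 and 40. Of 15 neutrophil markers tested edgeR called none and DESeq2 called Clec4d. At an unadjusted p under 0.05, 7 were higher and 0 lower, against 3.69% and 3.55% of all genes. The median of the list was 0.96. On the log2(CPM + 1) scale it was 0.86 within July dates and 0.00 within November dates. Summed over the list, markers were at 51.9 to 57.8 CPM at 0 h and 98.2 to 102 CPM at 6 h. The granule genes Ngp, Camp, Ltf and Elane had no count in any of the 6 libraries, and Cxcr2 was at 22.8 ± 8.11 and 19.4 ± 5.55 CPM. Mmp9, S100a8 and S100a9 are also made by keratinocytes or macrophages, and the part of neutrophils in the chemokine or Selp values was not tested. Of 16 monocyte and macrophage markers tested none was called by edgeR or DESeq2, and their median was -0.32. Their log2 fold change was positive for 5 and negative for 11. At an unadjusted p under 0.05, 1 was higher and 0 lower, against 3.69% and 3.55% of all genes. Adgre1 (listed as Emr1) was at 3.40 ± 0.516 and 1.37 ± 0.556 CPM, and the T cell gene Cd3e had 0 counts in all 6 libraries.

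Among epidermal genes, the wound keratinocyte list had a median of 0.67 over 19 members, with no edgeR call and 2 DESeq2 calls (Ptx3 and Plaur). At an unadjusted p under 0.05, 8 were higher and 0 lower, against 3.69% and 3.55% of all genes. Ptx3, a soluble pattern receptor, was at 4.00, 5.44 and 5.76 CPM at 0 h and 50.4, 29.7 and 16.1 CPM at 6 h (2.67 ± 0.65, adjusted p = 0.0927), and Plaur, the urokinase receptor, at 3.08 ± 1.32 and 10.5 ± 3.10 CPM (1.74 ± 0.43, adjusted p = 0.103). The stress keratins were already high at 0 h, with Krt6a at 1547 ± 289 CPM against 2186 ± 555 CPM at 6 h and Krt16 at 1247 ± 525 CPM against 2038 ± 634 CPM, and the groups overlapped in both genes (adjusted p = 0.868 for each). No call by edgeR or DESeq2 fell in 3 further lists. Their medians were -0.16 for terminal epidermal differentiation genes, 0.18 for basal keratinocyte markers and -0.27 for mitosis and replication genes. In the mitosis list 6 h replicate 2 was at the 0 h level, with a summed CPM of 1020 against 985 to 1013 at 0 h, and 6 h replicates 1 and 3 were at 715 and 633.

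The smooth muscle and collagen lists had negative medians and no edgeR call. Of 10 smooth muscle and pericyte markers all had a negative log2 fold change, with a median of -0.97. At an unadjusted p under 0.05, 4 were lower, against 3.55% of all genes. Mylk was at 75.9, 96.7 and 81.1 CPM and then 40.9, 22.6 and 45.6 CPM (-1.22 ± 0.32, adjusted p = 0.121), and DESeq2 called it lower. Without 0 h replicate 2, the library rich in muscle RNA, the median was -0.58. Collagen genes had a median of -0.56, or -0.30 without that library, with 4 of 15 positive. At an unadjusted p under 0.05, 6 were lower and 1 higher, against 3.55% and 3.69% of all genes. Col1a1 was at 1544, 2865 and 1111 CPM and then 1018, 828 and 601 CPM (adjusted p = 0.32). Skeletal muscle markers had the lowest median of all 40 lists, -2.25, which was -0.54 without 0 h replicate 2. Schwann cell markers had a median of -0.72, with S100b at 24.9 ± 4.12 and 7.46 ± 2.92 CPM (adjusted p = 0.498). On the log2(CPM + 1) scale, medians within November dates were -1.24 for Schwann cell and -1.75 for smooth muscle markers, against -0.19 and -0.47 within July dates.

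Of 40 gene lists, 23 had a positive median. Clock genes, 19 tested, had no edgeR call and 1 DESeq2 call (Cry1, higher), a median of 0.16, and values of 18.0 ± 3.54 and 42.5 ± 3.97 CPM for Cry1 (1.24 ± 0.32, adjusted p = 0.121) and 122 ± 22.5 and 61.0 ± 11.6 CPM for Nr1d1 (-1.0 ± 0.28, adjusted p = 0.191). Collection hour by the clock is not given in the sources used here, and its part in these values was not tested. The lists of interferon-stimulated genes, heat shock and chaperone genes, and ATF4 and unfolded protein response genes had no call by edgeR or DESeq2. Their medians were -0.21, 0.27 and 0.28. Without 0 h replicate 2 the interferon median turned to 0.0085 and the ATF4 median was 0.17.

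**Figure D3:**
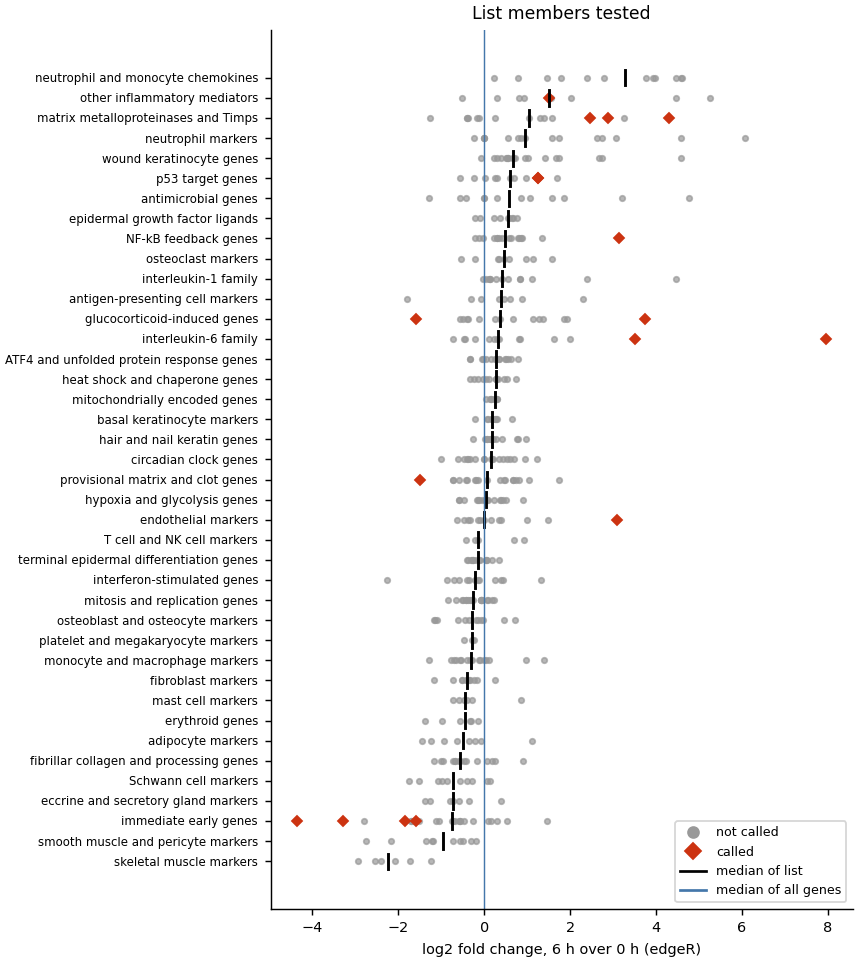
The 40 gene lists, each point being the edgeR log2 fold change of 6 h over 0 h of 1 member tested, red where called, with a black bar at the median of the list and a blue line at the median of all genes. Chemokines sit at the top with a median of 3.27 and no red point, and skeletal muscle markers at the bottom with -2.25, a value that rests on 1 library at 0 h.

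The size of the change was also taken within each set of dates, from 6 h replicates 1 and 3 against 0 h replicate 3 for July and from 6 h replicate 2 against 0 h replicates 1 and 2 for November. Since the groups of the 26 genes do not overlap, the sign within each set is fixed, and only the sizes can differ. For Fosb, mean log2(CPM + 1) at 6 h minus that at 0 h came to -4.61 in July and -4.51 in November, and the same differences were -3.43 and -3.93 for Fos, 4.15 and 2.68 for Il6, 3.42 and 2.44 for Lif, and 4.27 and 3.66 for Mmp3. The July difference was the larger for 13 of the 19 genes that rose. The November library at 6 h was the lowest of the 3 for 16 of these 19 genes, and over all genes tested it was the lowest for 37.7%. A test of the difference between date sets (interaction term, edgeR) called no gene, with 292 at an unadjusted p under 0.05 and none of the 26 among them, and DESeq2 also called none. In that test 0 h in July and 6 h in November hold 1 library each, so the lack of a call does not show that the date sets are alike. With date set as a covariate, 48 genes were called, 33 higher and 15 lower, and all 26 were among them.

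**Figure D4:**
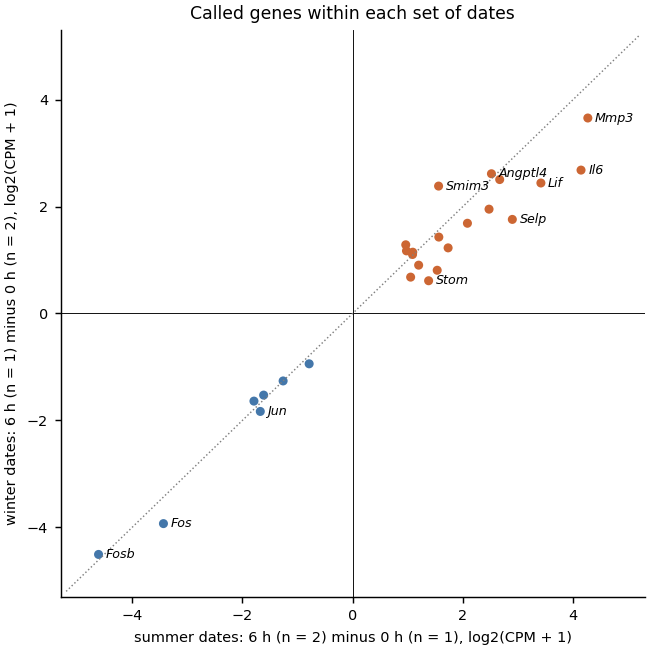
Difference of mean log2(CPM + 1) between 6 h and 0 h for the 26 called genes, within July dates on the horizontal axis and within November dates on the vertical axis, with the dotted line marking equality. Of the 19 orange points (higher at 6 h), 13 lie below the line, with the larger difference in July, and the quadrant of each point is fixed because the groups do not overlap.

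The calls depended on single libraries. Without 0 h replicate 1 the fit called 3 genes and without 0 h replicate 2 it called 4, while 18 were called without 0 h replicate 3. Leaving out 6 h replicates 1, 2 or 3 gave 10, 30 and 13 genes. DESeq2 called 93 genes, 58 higher and 35 lower, among them all 26. Its further calls among list members numbered 18 and included Cxcl1, Cxcl2, Ccl7, Il1b, Mmp13, Ptx3, Plaur, Osmr, Stat3, Icam1 and Slpi as higher and Egr1, Cyr61, Klf2 and Mylk as lower. A fit to the 6 h and 0 h libraries alone called 22 genes, 14 of them among the 26, and lost Adamts4, Amd1, Dusp1, Il13ra1, Pdpn, Ptges, Samhd1, Sertad4, Smim3, Stom, Tgfb3 and Trp53inp1.

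Many of these genes were also called against 0 h at other times, 7 of the 26 at 3 h, 14 at 12 h, 16 at 24 h, 16 at 3 d, 16 at 7 d, 11 at 14 d and 7 at 21 d. Of the 13793 genes tested, those called against 0 h numbered 35 at 3 h, 23 at 12 h and 68 at 24 h. At 3 d, 7 d, 14 d and 21 d the numbers were 76, 323, 222 and 268. Values at 3 h, 12 h, 24 h and later against 0 h share the 0 h libraries with the comparison above, and the mean levels over the first day are given side by side. Fosb was at 296 ± 120 CPM at 0 h, 174 at 3 h, 14.7 ± 7.00 at 6 h, 6.23 at 12 h and 16.3 at 24 h. Fos was at 138 CPM at 3 h and 51.3 at 12 h, and Jun at 132 and 86.0 CPM, so that the means of these 2 lay closer to the 6 h level than to the 0 h level by 3 h and that of Fosb did not. The 3 h libraries of Fosb were spread widely, at 73.0, 284 and 165 CPM, and the place of its mean rests on replicate 2. Mean CPM of Lif was 2.27, 10.7, 26.1, 54.4 and 148 from 0 h to 24 h, and that of Mmp3 was 8.84, 32.7, 174, 467 and 809. The means were higher at each step, as were those of Timp1 at 1.45, 7.31, 10.7, 25.8 and 45.6 CPM. Il6 was instead at 14.95 CPM at 3 h, 13.1 at 6 h, 16.9 at 12 h and 46.8 at 24 h. Selp, at 53.7 CPM, and Adamts4, at 60.7 CPM, had a higher mean at 3 h than at 6 h. The 3 h libraries were uneven, at 1.22, 21.2 and 22.4 CPM for Il6 and 10.2, 73.5 and 77.3 CPM for Selp. Those of Adamts4 were at 13.7, 96.6 and 71.9 CPM. In each of these genes 3 h replicate 1 lay below every 6 h library.

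The direct comparison of 6 h with 3 h, which uses no 0 h library, called 22 genes (0.16% of those tested), 11 higher and 11 lower at 6 h. Of the 26 genes, 3 were among them. Fosb was lower at 6 h than at 3 h by a log2 fold change of -3.59 ± 0.55 (adjusted p = 0.0028). Trp53inp1 was at 118 CPM at 3 h, below its 0 h mean of 165, and higher at 6 h by 1.72 ± 0.25 (adjusted p = 0.00264), and Samhd1 was higher by 1.0 ± 0.22 (adjusted p = 0.0487). For Lif (1.31, adjusted p = 0.322), Mmp3 (2.43, adjusted p = 0.188) and Fos (-1.17, adjusted p = 0.336) the step from 3 h to 6 h did not pass. From 6 h to 12 h no gene was called by edgeR, with 914 at an unadjusted p under 0.05, and DESeq2 called 4. All 3 h and 12 h libraries carry July dates, so these steps set July libraries against a 6 h group with 1 November library. The mean at 6 h was the highest of the 9 time points for 7 of the genes that rose, Samhd1, Trp53inp1, Amd1, Angptl4, Il13ra1, Ptges and Stom, and the lowest for Cntln and Tgfb3. These genes were picked by their 6 h level, and 6 h was not tested against 24 h or later. Some of the ranks are close, with Il13ra1 at 286, 170 and 259 CPM at 6 h and at 256, 196 and 248 CPM at 24 h.

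**Figure D5:**
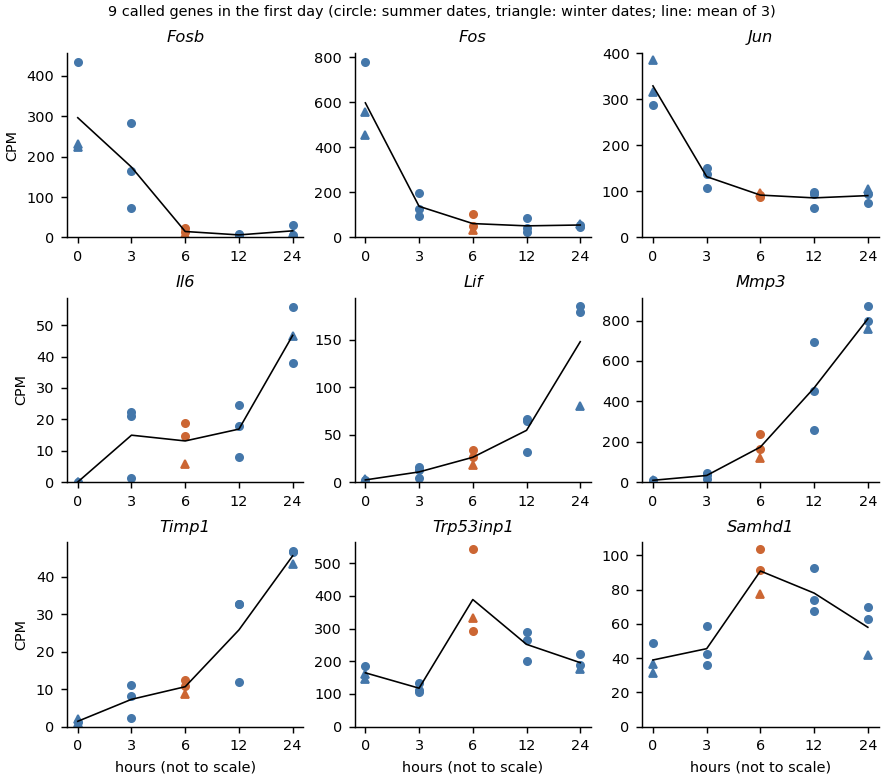
CPM of 9 called genes in each library at 0, 3, 6, 12 and 24 h (equal spacing, orange at 6 h, circles summer dates from July to August, triangles winter dates from November to December, line at the mean of 3). Fosb, Fos and Jun come down from 0 h, Lif, Mmp3 and Timp1 go up at each step, and Trp53inp1 and Samhd1 have their highest mean, 389 and 90.9 CPM, at 6 h.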

How the data were processed

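RNA was poly(A)-selected and sequenced by LM-Seq, a ligation-mediated protocol. Per the labels and the study's methods, the authors base-called with CASAVA 1.8.2, mapped reads to mouse genes of Ensembl v75 (mm10) with Bowtie and deposited RSEM 1.2.3 expected counts and TPM for each library. Whether counting used strand is not given in the sources used here. The authors' averaged TPM table was not used. Expected counts were rounded and fitted for all 30 libraries at 9 time points with edgeR 4.0.16 (TMM, filterByExpr, quasi-likelihood test, R 4.3.3), with the contrast 6 h minus 0 h and Benjamini-Hochberg adjustment over the 13793 genes tested. DESeq2 1.42.0 was the other tool. It gave no adjusted p for 1071 genes. CPM used TMM library sizes, and TPM served only to compare genes per length. The scripts were tested on simulated counts. Replicate pairs differed by far more than counting noise. Depth limits low genes, and floors (3 counts per library) cover counting error only. An SE beside an edgeR log2 fold change was derived as the size of that change divided by the square root of its quasi-likelihood F statistic. SD and SE values also hold the spread between libraries. Sources give 3 mice per time point and 6 at day 7, yet a 0 h and a 12 h library carry the same animal code and date, so independence of animals could not be checked.

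Named genes were every called gene (up to 40), and for each of 40 lists its called members and otherwise up to 4 with the smallest p, plus members at or under 3 counts in every 0 h library and detected in every 6 h library. Further members were named, after their values were seen, as contrasts. Genes called at 6 h against 3 h or 12 h against 6 h and also at 6 h against 0 h were named too. The comparison and the lists were chosen with earlier results of these data known. Positions are from GENCODE M21 (GRCm38). RefSeq windows matched 74.7% of gene symbols in the files.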

Additional observations from a re-analysis of the deposited data

How the results depend on the processing

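For 6 h against 0 h, where 26 genes were called, DESeq2 called 93, the fit with date set as covariate 48, and a threshold of 0.01 left 7. Leaving out 1 library at a time gave 3 to 30. RLE scaling gave 27, at least 1 CPM in 3 libraries 26, no filter 33, the 2 time points alone 22, and the fit without left-foot libraries 38. For 6 h against 3 h, where 22 were called, DESeq2 called 111, the covariate fit 44, the 2 time points alone 1, and leaving out 1 library gave 4 to 90. The value of 90 came without 3 h replicate 1, and those of 4 and 5 without 3 h replicate 2 and 6 h replicate 2. For 12 h against 6 h DESeq2 called 4 and every other fit 0. The interaction with date set had no call in any fit, with 369 genes at an unadjusted p under 0.05 by DESeq2 and 846 in the 2 time points alone. The 26 genes kept their calls under RLE, DESeq2, both filters, the covariate and without left-foot libraries. The number of lists with a positive median, 23, was 22 under RLE, 21 within July dates, 25 within November dates and, in an alternative chosen after seeing the data, 25 without 0 h replicate 2. Causes were not tested. No paired analysis was possible because the labels give the libraries no replicate numbers that pair them.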
